A study of Rattus norvegicus with 15 samples.

Results

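The genes described here are the bone morphogenetic protein (BMP) ligand, receptor and SMAD genes Bmp4, Bmpr1a, Bmpr2, Smad1, Smad6 and Grem1 and the 4 genes of the Id family, Id1, Id2, Id3 and Id4. They were chosen by symbol from the annotation of the count table, and 9 of the 10 were among the 11574 genes analysed, all except Grem1, a secreted BMP antagonist. The counts came from H9c2, a line of myoblasts that was established from the heart of a rat embryo, in 5 groups with 3 libraries each. All cultures were seeded in medium with 10% fetal bovine serum, and T0 was harvested 24 h after seeding. T7-RA and T14-RA were kept in 1% serum and harvested at day 7 or day 14, and T7+RA and T14+RA received in addition 1 µM all-trans retinoic acid (RA) every day. RA, made in the body from vitamin A and bound by nuclear receptors, was dissolved in DMSO, and whether the cultures without RA received DMSO is not given in the sources used here. The change from 10% to 1% serum came between T0 and every later group, so time in culture and serum cannot be told apart. All titles name H9c2, while the cell line tag carries another number in each library after T0 and was read here as the same line. The study's methods call the 3 libraries of a group biological replicates, and p-values measure the spread between these libraries.

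BMP ligands such as Bmp4 bind a receptor complex of type I chains, such as Bmpr1a, and type II chains, such as Bmpr2. The active complex phosphorylates Smad1 and its close relatives, which enter the nucleus with Smad4 and switch on target genes. The Id genes are the best known of these targets in many cell types. Id proteins have a helix-loop-helix domain without a DNA-binding region, pair with E proteins such as Tcf3, and so keep muscle factors such as Myod1 from working. Id genes are therefore known for high expression in dividing myoblasts and for falling when these cells leave the cell cycle to differentiate. Smad6 and Smad7 are inhibitory SMADs, themselves targets of the pathway, and secreted antagonists such as Grem1 and follistatin (Fst) hold back ligands outside the cell.

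The promoters of the 3 Id genes with the most counts are shown because their counts carry most of the results. The sequences are from RefSeq (assembly GRCr8) and were matched by symbol, since the deposited counts refer to another assembly, Rnor_6.0. A promoter entry was found for 9 of the 10 genes, and Smad6 is named only. Each stretch ends at the base before the annotated gene span, is written 5′ to 3′ along the gene's strand, and has in capitals every CCAAT (or ATTGG on the other strand) and every TATAA (or TTATA). For Id1 and Id3 the start site that RefSeq's promoter window is built on lies inside that span, so their stretches end short of it. The motifs were chosen after the sequences had been seen.
Id1, chr3:161671314-161671524, plus strand: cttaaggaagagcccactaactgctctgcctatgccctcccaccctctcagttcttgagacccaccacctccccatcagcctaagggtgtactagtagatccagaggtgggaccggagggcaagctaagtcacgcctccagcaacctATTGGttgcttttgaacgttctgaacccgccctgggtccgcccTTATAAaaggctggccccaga
Id2, chr6:47470996-47471245, minus strand: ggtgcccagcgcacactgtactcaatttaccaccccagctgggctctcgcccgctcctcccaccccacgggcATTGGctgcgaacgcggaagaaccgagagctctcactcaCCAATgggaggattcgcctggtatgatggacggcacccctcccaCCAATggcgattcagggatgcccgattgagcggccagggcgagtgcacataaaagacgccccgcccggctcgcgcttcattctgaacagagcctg
Id3, chr5:153656041-153656252, plus strand: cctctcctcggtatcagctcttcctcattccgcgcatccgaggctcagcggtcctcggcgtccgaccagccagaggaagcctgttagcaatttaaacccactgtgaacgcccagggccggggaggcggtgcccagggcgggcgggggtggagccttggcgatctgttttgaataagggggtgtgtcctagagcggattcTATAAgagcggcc
In these windows Id1 held 1 CCAAT and 2 overlapping TATAA matches, Id2 held 3 CCAAT and no TATAA, and Id3 held 1 TATAA and no CCAAT. Over the full window of 300 bases, from 250 before to 50 after the start, 37.7% of all 27457 RefSeq promoters held a CCAAT and 26.1% a TATAA on either strand. GGCGCC and GTCTAGAC, letters bound by SMADs, occurred in 11.8% and 0.215% of all promoters. GGCGCC was found in the windows of Id4 and Grem1 and not in those of the other 7 genes, and GTCTAGAC in none of the 9. Sequence outside these windows was not searched, so sites further away are not covered. The E-box CANNTG, the letters read by bHLH factors, was in the windows of Id1, Id2 and Bmp4 and in 71.6% of all promoters. CAGAC was in those of Id1, Bmp4 and Grem1 and in 50% of all promoters, and TGACGTCA was in none of the 9 and in 1.91% of all promoters.

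Libraries held 508397 to 1030820 counts, and 9 genes of the list held 56 to 1228 counts summed over the 15 libraries. Levels are given as CPM, counts scaled by library size and TMM factors, which ranged from 0.938 to 1.033. Changes are log2 values from edgeR's quasi-likelihood test over all 11574 genes, called at a Benjamini-Hochberg adjusted p under 0.001, or under 0.05 for the difference in RA change between the days. An additive model gave a T7 term, a T14 term and an RA term, and a model of group means gave the single contrasts. These are bulk libraries, so fewer cells expressing a gene and less RNA per cell cannot be told apart. Of 9 markers of skeletal myoblasts and muscle 7 were in the table, whereas of 6 cardiomyocyte markers only Gata4 was, at a mean of 11.2 to 15.9 CPM per group, and Nkx2-5, Myh6, Nppa, Nppb and Ryr2 were not. The table leaves out genes with 20 or fewer counts in all libraries together, so absence from it does not show absence of expression. The study's qPCR gave a rise of Ryr2 with time under RA. The summed level of 6 proliferation genes was 1550 to 1730 CPM at T0, 1140 to 1190 in T7-RA, 1000 to 1050 in T7+RA, 593 to 673 in T14-RA and 416 to 560 in T14+RA. The summed level of the muscle markers was 4060 to 4690 CPM at T0, 5290 to 5640 in T7-RA, 12700 to 13300 in T14-RA, 2800 to 3130 in T7+RA and 5650 to 6330 in T14+RA. That sum holds Vim, which many other cell types also express and which averaged 4010 CPM at T0, 2480 in T7-RA and 1280 in T7+RA, whereas the myosin gene Myh3 averaged 40.8 CPM at T0, 1340 in T7-RA and 579 in T7+RA. All 5 smooth muscle markers were in the table, and their sum was 15500 to 17000 CPM at T0, 3970 to 5460 in T7-RA, 3470 to 3590 in T14-RA, 4810 to 5360 in T7+RA and 4050 to 4840 in T14+RA, most of it Acta2 (mean 12700 CPM at T0). Of 6 fibroblast markers 4 were in the table, most of their sum being Col1a1, and the sum was 25700 to 38500 CPM at T0 and 18300 to 25600 in the later groups. Dcn and Lum of that list went the other way, with a mean of 0 CPM at T0 and of 50.5 and 28.5 in T14-RA. The proliferation and smooth muscle sums were thus highest at T0, as were Id2 and Id3, and at day 7 the proliferation sum was lower with RA than without, where Id1 was higher. The part of these shifts in the results was not tested.

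By the additive model, Id1, Id2 and Id3 were lower at day 14 than at T0, and Id2 and Id3 also at day 7. Per length, Id3 had the highest level of the 4 (mean 253 TPM, a depth-scaled level per gene length computed from the counts, over the 15 libraries), followed by Id1 (99.6 TPM), Id2 (39.4 TPM) and Id4 (7.03 TPM). Among the 9 analysed genes, Id2 and Id3 were called lower for the T7 term and Id1, Id2 and Id3 for the T14 term. That is 2 of 9 beside 8.73% of all genes called in either direction for T7, and 3 of 9 beside 17.3% for T14. Lower calls made up 4.44% and 8.85% of all genes.

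Id3 (ENSRNOG00000026124, band 5q36) fell in the first week both without and with RA. It stood at 265, 287 and 231 CPM in the 3 T0 libraries, at 115, 126 and 93 in T7-RA, and at 84.1, 97.4 and 79.6 in T14-RA. With RA it stood at 89.8, 107 and 99.4 CPM in T7+RA and at 60.8, 73.9 and 65.3 in T14+RA. Every later library was below every T0 library, and the T14+RA libraries were below all others. In edgeR's additive model Id3 fell by 1.18 on the log2 scale for T7 (SE 0.134, adjusted p = 3.43e-10) and by 1.65 for T14 (SE 0.14, adjusted p = 5.7e-15). Both calls held without any 1 of the 15 libraries. The first week without RA gave a log2 change of -1.23 (SE 0.139, edgeR adjusted p = 1.13e-10) and with RA -1.40 (SE 0.144, adjusted p = 3.62e-12), and these 2 contrasts share the T0 libraries. The second week with RA gave -0.59 (SE 0.174, edgeR adjusted p = 0.0159), which did not pass 0.001, and without RA -0.36 (adjusted p = 0.189).

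Id2 (ENSRNOG00000007237, 6q16) stood at 38.6, 35.7 and 37.7 CPM at T0, at 14.31, 16.1 and 16 in T7-RA and at 14.4, 17.7 and 13.6 in T14-RA. The 2 groups without RA overlapped each other and lay below T0. Values with RA were 15.7, 21.5 and 25.7 CPM in T7+RA and 22.2, 20.4 and 29 in T14+RA, still below every T0 library. Id2 fell by 1.32 for T7 (SE 0.285, edgeR adjusted p = 0.000294) and by 1.24 for T14 (SE 0.288, adjusted p = 0.000451). The counts behind it were 8 to 28 per library, and the calls are close to the threshold. The T7 call was lost without T0 replicate 1, T0 replicate 3 or T7-RA replicate 1 (edgeR adjusted p up to 0.00309), and the T14 call without any 1 of the T0 libraries or without T14-RA replicate 1 or 3 (up to 0.00384). DESeq2 called neither (adjusted p = 0.00161 and 0.00271). As single contrasts, the first week gave -1.27 without RA (SE 0.309, edgeR adjusted p = 0.00127) and -0.85 with RA (SE 0.299, adjusted p = 0.0283), and neither passed 0.001. With 1 library left out the log2 change ranged from -1.36 to -1.28 for T7 and from -1.29 to -1.18 for T14.

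Id1 (ENSRNOG00000021750, 3q41) was the Id gene called for RA. It stood at 67.6, 80.7 and 48.2 CPM at T0, at 22.7, 37.6 and 32 in T7-RA, and at 19.2, 30.1 and 30.5 in T14-RA. In T7+RA it stood at 82.7, 83.2 and 66.9 CPM, in the range of T0 or just above it, and above every T7-RA library. In T14+RA replicate 1 stood at 50.2 CPM and replicates 2 and 3 at 25.2 and 23.6, within the range of T14-RA. Replicate 1 of T14+RA rests on 52 counts, with a 95% counting interval of 37.5 to 65.8 CPM, and replicates 2 and 3 on 16 and 13 counts, with intervals of 14.4 to 40.8 and 12.5 to 40.3. It is also the library with the most counts of the 15. These exact Poisson intervals cover counting error only.

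At day 7, Id1 was higher with RA by 1.35 on the log2 scale (SE 0.242, 2.55-fold, edgeR adjusted p = 2.58e-05). It was the 1 of the 9 genes called, beside 3.17% of all genes in either direction and 1.87% called higher. Without T7-RA replicate 1 the change was 1.16 and not called (edgeR adjusted p = 0.00247), and without each other library it stayed called. At day 14 none of the 9 genes passed edgeR's adjusted p of 0.001, beside 4.81% of all genes, while 3 had an unadjusted p under 0.05, beside 21.6% of all genes. Limma-voom and DESeq2 called none either. The Id1 change at day 14 was 0.46 (SE 0.293, 95% interval -0.12 to 1.05, edgeR adjusted p = 0.394), and without T14+RA replicate 1 it was -0.08. The RA change at day 14 minus that at day 7 was -0.89 for Id1 (SE 0.388, unadjusted p = 0.0248, edgeR adjusted p = 0.494), so a different response at the 2 days was not established. No gene of the 9 was called for that difference at an adjusted p under 0.05 with edgeR, limma-voom or DESeq2, beside 0.743% of all genes with edgeR, and Id1 was the 1 with an unadjusted p under 0.05, beside 8.35% of all genes.

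The additive RA term called Id1 higher (0.99, SE 0.198, edgeR adjusted p = 0.000131), 1 of 9 beside 6.39% of all genes in either direction and 3.33% called higher. That call was lost without T7-RA replicate 1, T7+RA replicate 1, T7+RA replicate 2 or T14+RA replicate 1 (edgeR adjusted p up to 0.00224), and with DESeq2 (adjusted p = 0.00128). Over all libraries left out in turn the RA term ranged from 0.83 to 1.10. Without RA, Id1 fell in the first week by 1.11 (SE 0.256, edgeR adjusted p = 0.00064). This call was lost without T0 replicate 1, T0 replicate 2, T7-RA replicate 1 or T7-RA replicate 3 (adjusted p up to 0.0151), and with limma-voom, DESeq2 and library size only (adjusted p up to 0.00483). Over all libraries left out in turn the change ranged from -1.29 to -0.92. With RA, the same week gave 0.24 (95% interval -0.20 to 0.68, edgeR adjusted p = 0.47). In the second week with RA, Id1 fell by 1.13 (SE 0.236, edgeR adjusted p = 0.000278), and without RA the change was -0.24 (SE 0.301, adjusted p = 0.771). The fall with RA was not called without T7+RA replicate 1 or 2 or T14+RA replicate 2 or 3 (edgeR adjusted p up to 0.0059), nor with DESeq2 (adjusted p = 0.00331). Over all libraries left out in turn this change ranged from -1.67 to -0.96. For the T14 term Id1 was called lower (-1.68, SE 0.265, edgeR adjusted p = 8.48e-07), and this held without any 1 library. Its T7 term was -0.89 (adjusted p = 0.00629) and not called.

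**Figure D1:**
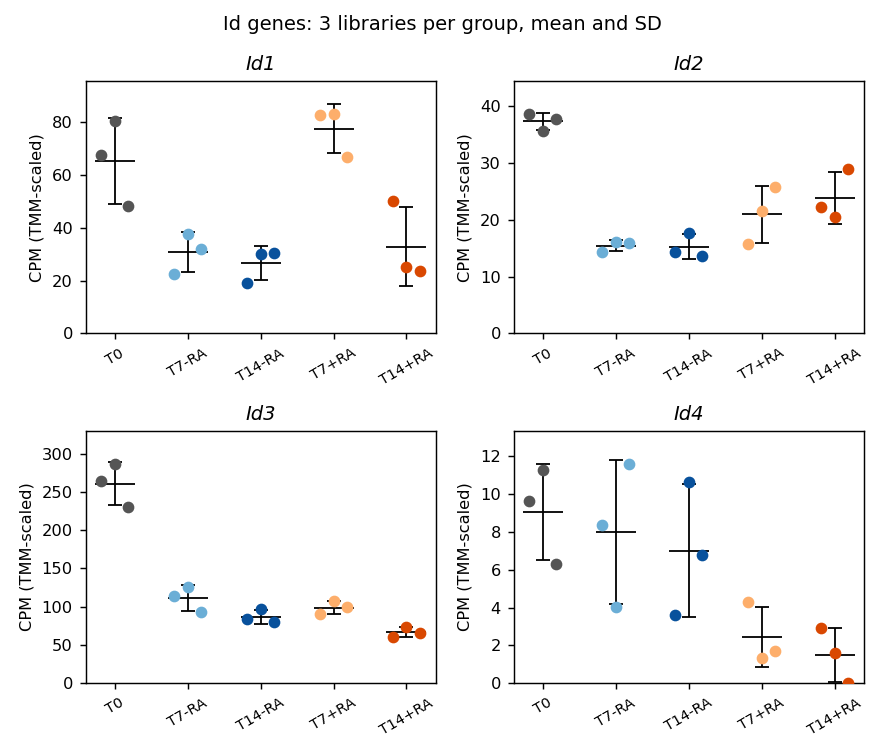
Level of Id1, Id2, Id3 and Id4 in each of the 15 libraries, in TMM-scaled CPM on a linear axis, by group, with the group mean and SD (n = 3). Id2 and Id3 lie below T0 in all later libraries, whereas Id1 in T7+RA (66.9 to 83.2 CPM) lies above T7-RA (22.7 to 37.6 CPM).

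Id2 and Id3 did not pass the test for RA at either day. Id2 changed by 0.42 at day 7 (SE 0.337, edgeR adjusted p = 0.605) and by 0.63 at day 14 (SE 0.335, adjusted p = 0.276). Id3 changed by -0.17 at day 7 (SE 0.157, edgeR adjusted p = 0.674) and by -0.39 at day 14 (SE 0.179, adjusted p = 0.171). At day 14 all 3 T14+RA libraries lay above the T14-RA libraries for Id2 and below them for Id3. Id4 (ENSRNOG00000016099, 17p14) was close to the limit of detection, with 0 to 8 counts per library. Its counts were 7, 6 and 3 at T0. Without RA the T7 libraries held 7, 3 and 8 counts and the T14 libraries 3, 6 and 4. With RA the T7 libraries held 3, 1 and 1 counts and the T14 libraries 3, 1 and 0. The ratio of depth-scaled summed counts with RA to without RA was 0.311 at day 7 (95% counting interval 0.0902 to 0.868) and 0.275 at day 14 (0.0653 to 0.89). The RA term of Id4 had an edgeR adjusted p of 0.0192 and was not called.

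Summed over the 4 Id genes, the level per length was 738 ± 68.6 TPM at T0 (SD, n = 3). Without RA it was 334 ± 29.3 TPM at day 7 and 266 ± 29 at day 14, and with RA 414 ± 27.5 at day 7 and 242 ± 22.4 at day 14. At T0 Id3 made up 71.1% ± 1.32 of the sum (SD, n = 3) and Id1 18.5% ± 2.4. The makeup was similar without RA, with Id1 at 15.3 to 22.8% in T7-RA and 17 to 25.1% in T14-RA. In T7+RA Id1 made up 36.4 to 45% and Id3 46.6 to 51.6%, and neither range overlapped that of T7-RA (63 to 73.5% for Id3). In T14+RA Id1 made up 21.5 to 39.2% and Id2 16.9% ± 4.17 (SD, n = 3), against 9.89% ± 0.668 for Id2 in T14-RA. These shares are given as a description, without a test, since they restate the counts above on another scale.

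**Figure D2:**
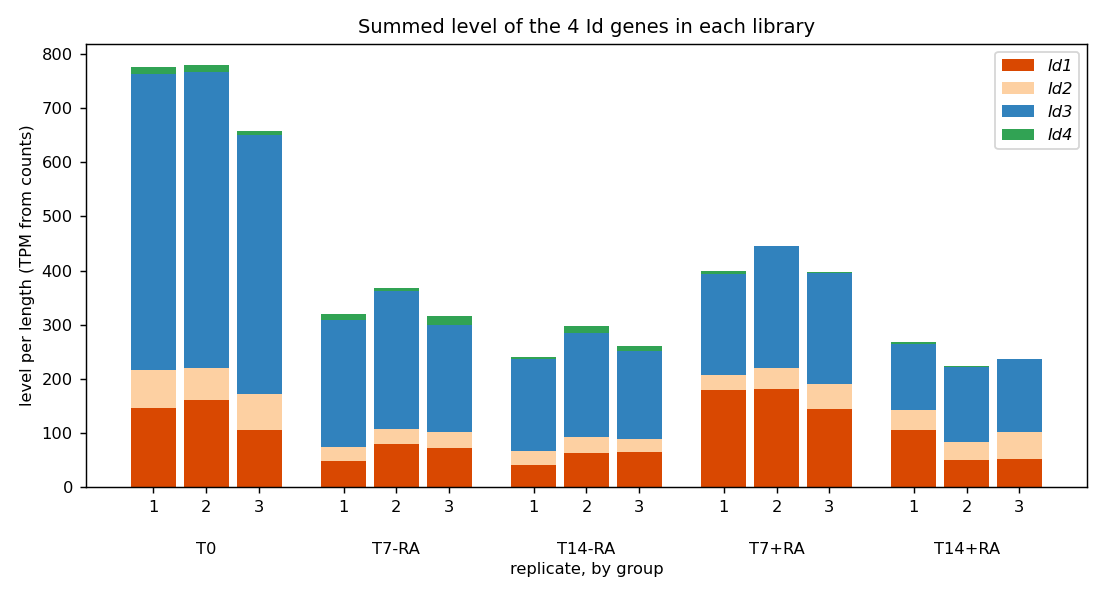
Level per length (TPM computed from counts) of the 4 Id genes, stacked, in each of the 15 libraries by group and replicate number. Bars reach 659 to 780 TPM at T0 and 223 to 446 TPM later, and the Id1 segment takes 36.4 to 45% of the bar in T7+RA.

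None of the 5 ligand, receptor and SMAD genes was called by edgeR for T7, T14 or RA in the additive model or in any single contrast. Bmp4 (ENSRNOG00000009694, 15p14), the ligand gene, stood at 121, 152 and 60.8 CPM at T0, at 135, 160 and 109 in T7-RA and at 124, 124 and 127 in T14-RA. With RA it stood at 148, 105 and 106 CPM in T7+RA and at 64.6, 101 and 68.9 in T14+RA. The 3 T14+RA libraries were below the 3 T14-RA libraries, which were close to each other, while the T0 libraries were spread. The RA change at day 14 was -0.70 (SE 0.223, edgeR adjusted p = 0.0393), which did not pass 0.001. Over the libraries left out in turn it ranged from -0.90 to -0.54, with adjusted p from 0.0022 to 0.23. At day 7 it was -0.17 (SE 0.202, edgeR adjusted p = 0.78). Day 14 minus day 7 gave -0.53 (SE 0.302).

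Bmpr1a (ENSRNOG00000052469, 16p15), the type I receptor, stood at 85.5, 95.7 and 46.1 CPM at T0, at 85.9, 117 and 122 in T7-RA and at 123, 115 and 135 in T7+RA. All T7+RA libraries were above all T0 libraries. The change was 0.68 (SE 0.19, edgeR adjusted p = 0.00499) and was not called, except without T0 replicate 2 (adjusted p = 0.000975). In the second week Bmpr1a stood at 86.8 to 99.7 CPM in T14-RA and 67.6 to 116 in T14+RA, and the RA change at day 14 was -0.01 (SE 0.186). Bmpr2 (ENSRNOG00000022196, 9q31), the type II receptor, ranged from 70.7 to 139 CPM over the 15 libraries, and its groups overlapped in every contrast. Its largest change was -0.33 for the T14 term (SE 0.165, edgeR adjusted p = 0.119).

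Smad1 (ENSRNOG00000018483, 19q11), the receptor-activated SMAD, stood at 92.4, 78.8 and 105 CPM at T0 and at 60.8, 64.5 and 66.8 in T7-RA. It stood at 72.1, 67.3 and 64.4 CPM in T14-RA, at 77, 71.2 and 78.8 in T7+RA and at 88.8, 92.7 and 78 in T14+RA. Libraries with RA lay above those without RA of the same day at both days, without overlap. The RA change was 0.24 at day 7 (SE 0.182, edgeR adjusted p = 0.58) and 0.35 at day 14 (SE 0.178, adjusted p = 0.244), and neither was called. Its T7 term was -0.55 (SE 0.169, edgeR adjusted p = 0.0127). Smad6 (ENSRNOG00000009173, 8q24), the inhibitory SMAD, had 4 to 25 counts per library. It stood at 34.5, 24.4 and 12.6 CPM at T0, at 11.9, 9.41 and 7.26 in T7-RA, and between 6.29 and 16.1 in the other groups. Its summed, depth-scaled counts in T7-RA were 0.382 of those at T0 (95% counting interval 0.218 to 0.651), from 22 against 44 counts. The T7 term was -1.16 (SE 0.37, edgeR adjusted p = 0.0159) and the T14 term -1.24 (SE 0.377, adjusted p = 0.007), below T0 but not called. T0 replicate 3, the library with the fewest counts, was the lowest of the 3 T0 libraries for Id1, Id3, Id4, Bmp4, Bmpr1a and Smad6.

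**Figure D3:**
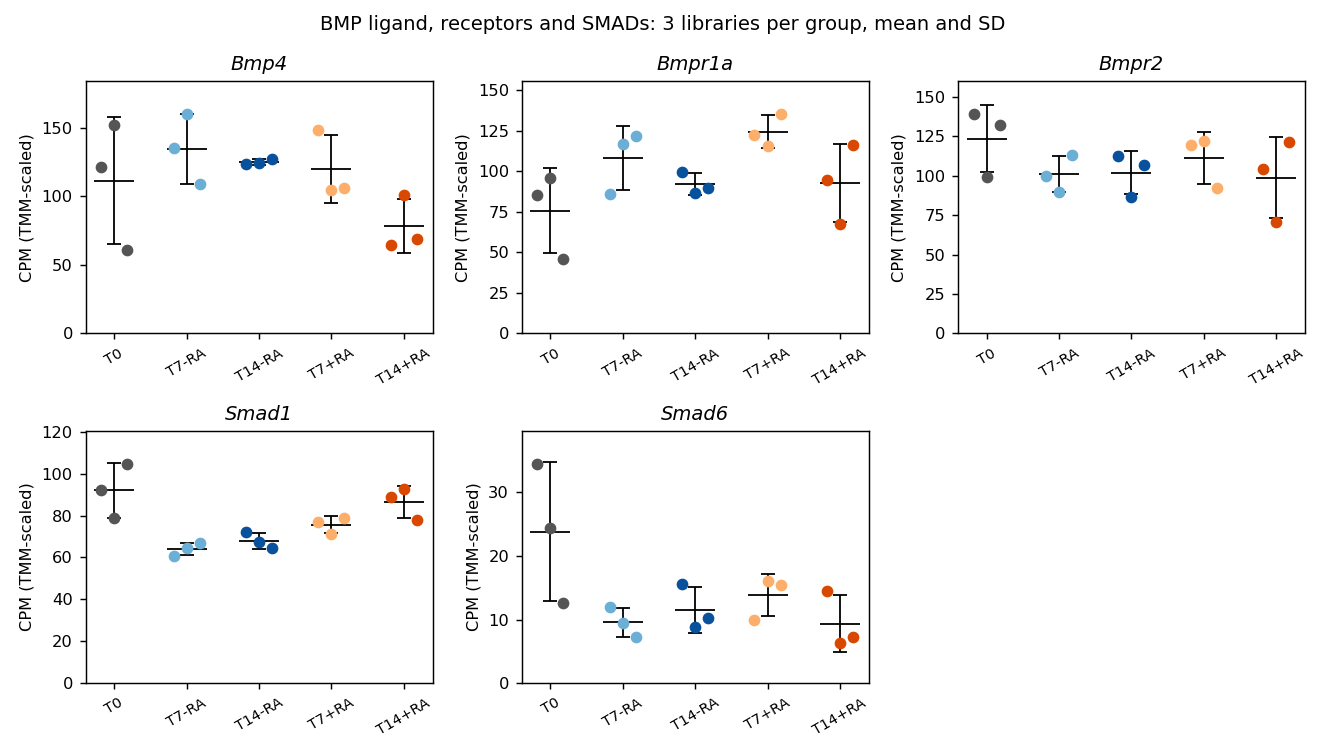
Level of Bmp4, Bmpr1a, Bmpr2, Smad1 and Smad6 in each library, in TMM-scaled CPM on a linear axis, by group, with the group mean and SD (n = 3). Smad1 lies higher with RA than without RA at both days, and Bmp4 in T14+RA (64.6 to 101 CPM) lies below T14-RA (124 to 127 CPM).

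Groups that do not overlap were common among all genes, and the 9 genes are read against that. At day 7, 2 of 9 did not overlap between +RA and -RA (Id1 and Smad1, both higher), beside 24.4% of all genes in either direction and 11.8% higher. At day 14, 5 of 9 did not overlap (Id2 and Smad1 higher, Id3, Id4 and Bmp4 lower), beside 27.2% of all genes, 13.4% higher and 13.9% lower. From T0 to T7-RA, 5 of 9 did not overlap, all lower (Id1, Id2, Id3, Smad1 and Smad6), beside 33.3% in either direction and 15.8% lower. From T0 to T7+RA, 4 of 9 did not overlap, beside 35.3% of all genes, 16.9% lower and 18.4% higher (Id2, Id3 and Id4 lower and Bmpr1a higher). From T7-RA to T14-RA none of 9 was without overlap, beside 25.7%, and none was called, beside 2.95%, although Id3 had an unadjusted p under 0.05 in edgeR, as did 18.4% of all genes. Limma-voom and DESeq2 called none either. From T7+RA to T14+RA, 3 of 9 were lower without overlap (Id1, Id3 and Bmp4), beside 28% of all genes in either direction and 13.6% lower. In the same contrast 1 of 9 (Id1) was called lower, beside 4.67% called in either direction and 2.26% lower. From T0, edgeR called 2 of 9 in T7-RA (Id1 and Id3), beside 8.78% of all genes (4.54% lower), and 1 of 9 in T7+RA (Id3), beside 10.4% (5.14% lower).

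**Figure D4:**
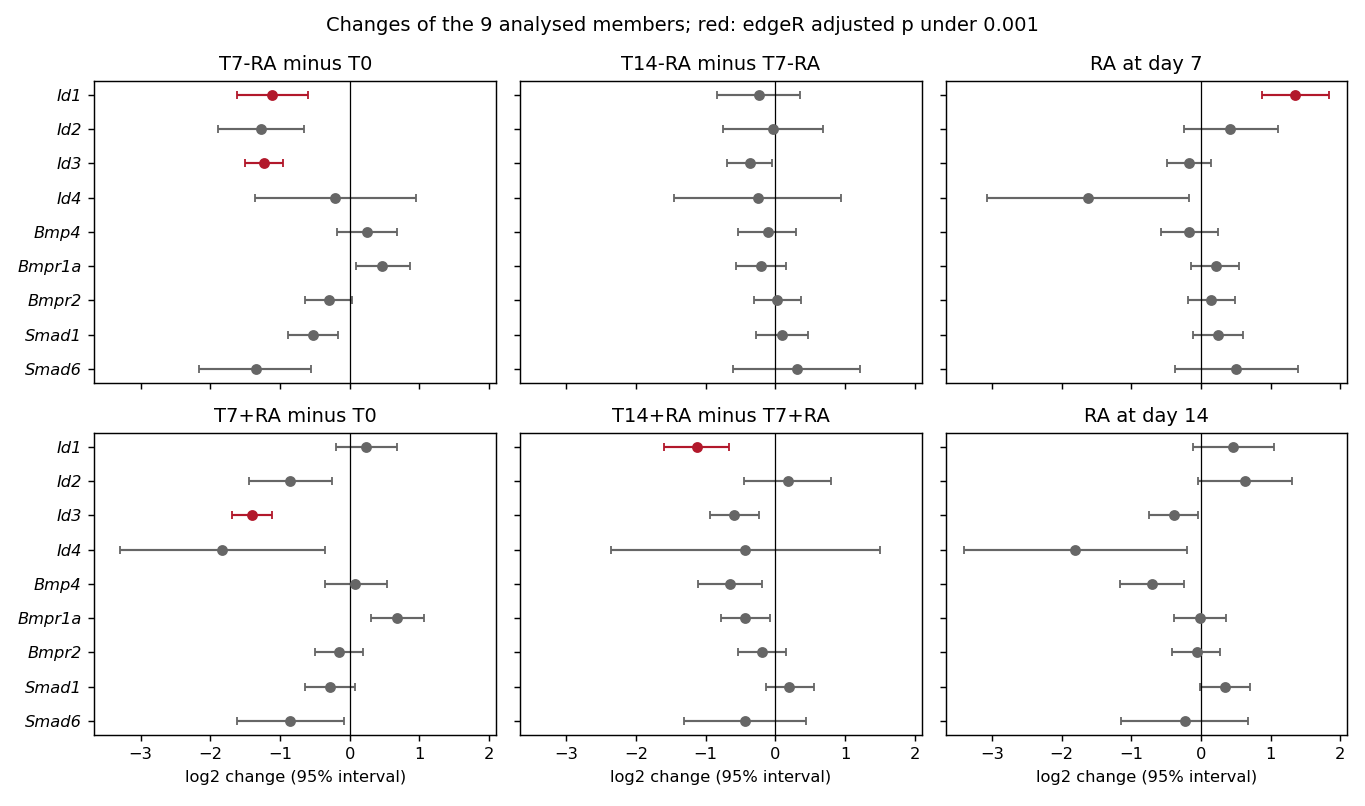
Log2 change with its 95% interval (edgeR) for the 9 analysed genes in 6 contrasts of group means, with calls at an adjusted p under 0.001 in red. Id1 and Id3 are called for T7-RA minus T0, Id3 for T7+RA minus T0, Id1 for T14+RA minus T7+RA and Id1 for RA at day 7 (1.35), and nothing is called for T14-RA minus T7-RA or for RA at day 14.

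Of 68 other genes listed for the BMP pathway and its Id partners, 44 were analysed. For the T7 term 1 was called higher and 7 lower (18.2% of 44), for the T14 term 3 higher and 13 lower (36.4%), and for the RA term 4 higher and 3 lower (15.9%), beside 8.73%, 17.3% and 6.39% of all genes. The median change of the 44 was -0.19 for T7, -0.46 for T14 and -0.16 for RA, beside 0.02, 0.05 and -0.01 over all genes. Of the 12 other ligands listed 3 were analysed, and edgeR called none for any of these terms, with 1, 2 and 1 at an unadjusted p under 0.05 for T7, T14 and RA, beside 34.2%, 43.1% and 24.8% of all genes.

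Among SMADs and their regulators (11 of 12 analysed), T7 called 3 lower, T14 called 4 lower and RA called 2 higher. Over all genes, 4.44% were called lower for T7, 8.85% lower for T14 and 3.33% higher for RA. Smad7, the other inhibitory SMAD, stood at 86.9, 78.8 and 81.8 CPM at T0 and at 20.3, 22.8 and 24.7 in T7-RA. It stood at 33.6, 24.8 and 25.4 CPM in T14-RA, at 22.8, 44.3 and 32.6 in T7+RA and at 10.6, 12.6 and 5.44 in T14+RA. All later libraries were below T0, and T14+RA was lower than all other groups. The T7 term was -1.44 (SE 0.278, edgeR adjusted p = 0.00011) and the T14 term -2.01 (SE 0.29, adjusted p = 3.28e-07). The T7 call was lost without T0 replicate 1 or any 1 of the T7-RA libraries (edgeR adjusted p up to 0.00227). Over all libraries left out in turn the T7 term ranged from -1.55 to -1.24. As single contrasts, the first week was called without RA (-1.87, SE 0.25, edgeR adjusted p = 1.6e-08) and with RA (-1.30, SE 0.238, adjusted p = 1.48e-05). The RA change of Smad7 was 0.57 at day 7 (SE 0.287, edgeR adjusted p = 0.296) and -1.51 at day 14 (SE 0.354, adjusted p = 0.00131), neither called. Day 14 minus day 7 was called at its threshold of 0.05 (-2.08, SE 0.457, edgeR adjusted p = 0.00721). It was not called without T14-RA replicate 1 or T7+RA replicate 2 (edgeR adjusted p up to 0.0888), and over all libraries left out in turn it ranged from -2.30 to -1.79.

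Skil and Ski, whose proteins repress SMAD target genes, and Smurf1, a ubiquitin ligase that marks SMADs for degradation, were also called lower for the T14 term. Skil stood at 75.9, 65.7 and 69.2 CPM at T0. Without RA it stood at 28.6, 28.2 and 32 CPM at day 7 and at 25.2, 12.4 and 13.5 at day 14. With RA it stood at 71.3, 87.3 and 84 CPM at day 7 and at 28.9, 28.3 and 39.9 at day 14. As for Id1, the T7+RA libraries of Skil lay near T0 and above T7-RA. Its T14 term was -2.23 (SE 0.243, edgeR adjusted p = 2.78e-11) and its RA change at day 7 was 1.45 (SE 0.223, adjusted p = 1.06e-06). Its T7 term was -1.11 (edgeR adjusted p = 0.000108), and this call was lost without T0 replicate 1 or T7-RA replicate 1 (adjusted p up to 0.00254). Smurf1 changed by -1.23 for T14 (SE 0.146, edgeR adjusted p = 4.73e-10) and by 0.85 for RA (SE 0.11, adjusted p = 1.1e-08). In the first week Smurf1 fell without RA, by 0.92 (SE 0.149, edgeR adjusted p = 1.7e-06), and with RA gave 0.04 (SE 0.138, adjusted p = 0.868). It was higher with RA at day 7 (0.96, SE 0.145, edgeR adjusted p = 6.47e-07) and at day 14 (0.72, SE 0.159, adjusted p = 0.000614), and the call at day 14 was lost without any 1 of the T14-RA libraries or T14+RA replicate 1 or 3 (adjusted p up to 0.0197), and with limma-voom and DESeq2 (up to 0.00353). Ski changed by -0.92 for T14 (SE 0.178, adjusted p = 3.08e-05). The Ski call was lost without T0 replicate 1 (edgeR adjusted p = 0.0036).

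Antagonists and other extracellular modulators (13 of 19 analysed) had 3 lower calls for T7, 6 lower and 1 higher for T14, and 2 lower and 1 higher for RA. Over all genes, 8.73%, 17.3% and 6.39% were called in either direction for these terms. Fst, which binds activins and some BMPs, stood at 45.6 to 53.7 CPM in T7+RA against 151 to 186 in T7-RA, and at 37.7 to 48.2 in T14+RA against 113 to 137 in T14-RA. It was lower with RA at day 7 (-1.76, SE 0.173, edgeR adjusted p = 1.43e-12) and at day 14 (-1.53, SE 0.185, adjusted p = 1.19e-09). Crim1, a membrane protein that binds BMPs, was higher with RA at both days (1.30, SE 0.107, edgeR adjusted p = 1.31e-15, and 1.00, SE 0.114, adjusted p = 1.9e-10), and stood at 867 to 1080 CPM in T7+RA against 902 to 1060 at T0. It was also among the lower calls for T7 (-1.28) and T14 (-1.89), and both held without any 1 library. Chrd, the antagonist chordin, rose for T14 (1.58, SE 0.27, edgeR adjusted p = 3.03e-06) and was lower with RA (-0.84, SE 0.192, adjusted p = 0.000835), a call lost without any 1 of the T7-RA libraries, T14-RA replicate 1 or 3, T7+RA replicate 1 or 2 or T14+RA replicate 1 or 2 (edgeR adjusted p up to 0.00539), and with limma-voom and DESeq2 (adjusted p up to 0.00259).

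Of 9 analysed receptors and co-receptors of 10 listed, T14 called Eng lower (-0.60, SE 0.144, edgeR adjusted p = 0.00067) and Hjv, a BMP co-receptor known from skeletal muscle, higher. The Eng call was lost in 9 of 15 fits with 1 library left out, without T0, T7-RA or T14-RA replicate 1 or 3, T7+RA replicate 1 or 2 or T14+RA replicate 1 (edgeR adjusted p up to 0.0198), and with limma-voom and DESeq2. Hjv rose from 2, 1 and 2 counts at T0 to 38, 27 and 30 in T14-RA, a ratio of depth-scaled sums of 16.6 (95% counting interval 6.86 to 52.2), and to 21, 19 and 15 in T14+RA, a ratio of 8.58 (3.46 to 27.5). The RA term called Rgma lower (-1.08, SE 0.199, edgeR adjusted p = 3.14e-05) and Neo1, the receptor for RGM proteins, higher (0.49, SE 0.0966, adjusted p = 8.6e-05). Of the 3 analysed other BMP targets of 8 listed, T14 called Atoh8 lower (-1.58, SE 0.305, edgeR adjusted p = 2.88e-05). Over all genes, T14 called 17.3% and RA 6.39% in either direction.

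The partners of the Id proteins (5 of 7 analysed) had 1 gene called in each direction for T7 and for T14 and none for RA. The shares of all genes called in either direction were 8.73%, 17.3% and 6.39%. For RA, edgeR gave 1 with an unadjusted p under 0.05, beside 24.8% of all genes. Tcf3, which encodes E proteins that pair with Id proteins, was lower for T7 (-0.72, SE 0.132, edgeR adjusted p = 2.58e-05) and T14 (-1.07, SE 0.135, adjusted p = 2.69e-09), and the T7 call was lost without T0 replicate 1 (adjusted p = 0.00221). Myog, a muscle factor that acts with E proteins, rose from 37.2 to 56.3 CPM at T0 to 407 to 485 in T7-RA and 632 to 645 in T14-RA. With RA, Myog stood at 295 to 341 CPM in T7+RA and 540 to 621 in T14+RA, and its T14 term was 3.81 (SE 0.153, edgeR adjusted p = 2.65e-29).

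**Figure D5:**
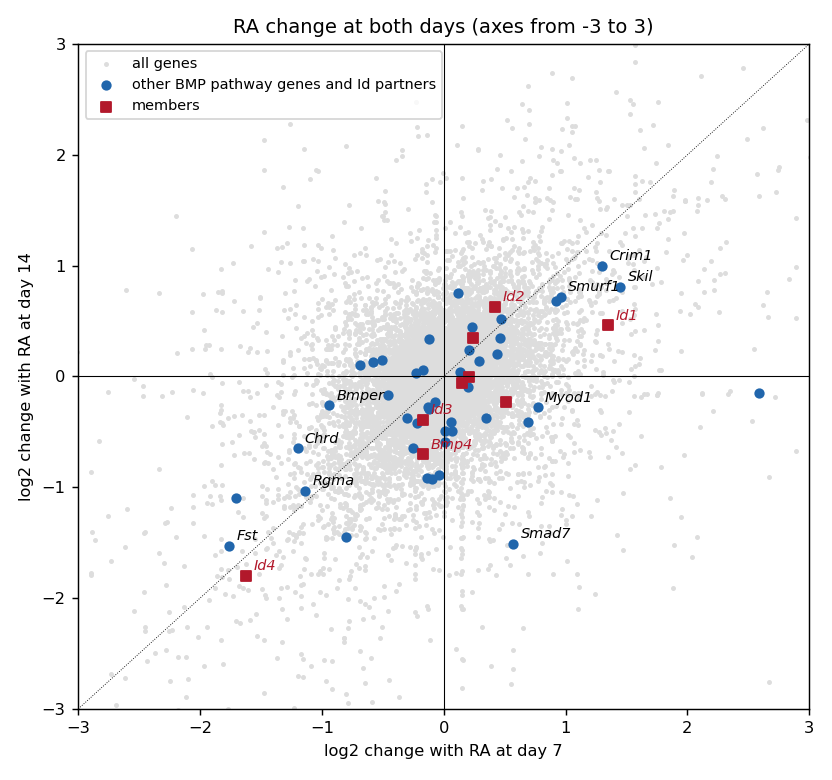
Log2 change with RA at day 7 (horizontal) and at day 14 (vertical) for all genes (grey), the other BMP pathway genes and Id partners (blue) and the 9 analysed genes of the list (red), with axes from -3 to 3 and genes beyond them not drawn. The dotted line marks equal changes at both days. Id1 lies at 1.35 and 0.46, and Smad7 at 0.57 and -1.51.

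The genes whose profile over the 15 libraries was nearest to each called Id gene were found by the root mean square (RMS) difference of centred log2 CPM, over 8378 genes with a mean count of at least 10. For Id3 they were Lasp1 (RMS 0.169), Tagln2 (0.172) and Mcm7 (0.177), beside a median of 0.74 over all genes compared. For Id2 they were RGD1559896 (0.226), Xxylt1 (0.228) and Mgat1 (0.238), beside 0.572. For Id1 they were Mcam (0.332), Spsb1 (0.34) and Vps26b (0.36), beside 0.754. The centred log2 CPM of Id3, Id2 and Id1 had an SD of 0.686, 0.468 and 0.694. No gene was nearest to more than 1 of the Id genes.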

How the data were processed

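Stranded mRNA libraries of 15 H9c2 samples, 5 groups of 3, were sequenced. The authors trimmed the reads, mapped them with HISAT2 to the rat genome and used featureCounts for the counts of each gene. The submitters' processing notes name Rnor_6.0. The authors deposited raw counts for genes with more than 20 counts in all libraries together, and the smallest sum in the table was 21. The strand setting and annotation release are not given in the sources used here, so overlapping antisense genes may share reads.

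Counts (508397 to 1030820 per library) were analysed with edgeR 4.0.16 in R 4.3.3, with TMM factors and robust quasi-likelihood tests, in an additive model (T7, T14, RA) and a model of group means. P-values were adjusted over all 11574 genes. The study used limma, whose voom form (3.58.1) was an alternative here, as were DESeq2 1.42.0, other scalings, filters and thresholds, a replicate block and each library left out. TPM was computed from the counts and the deposited gene lengths. Genes outside the list were named if an additive term called them. A result for 1 gene of the wider lists is not reported here. The genes, lists and tests were chosen with earlier results of these data known. Statistics were tested on simulated counts in which 200 genes were given a known log2 change. For RA at day 7, a change of 1 was called in 59.2% of genes with a mean count of 20 or more. Below 20 it was called in 2.06%. The RA term gave 92.4% and 18.3%, and the T14 term 64.5% and 7.53%. Id2, Smad6 and Id4 had mean counts of 14.9, 9.4 and 3.73, so a change not called there is not shown to be absent. Replicate libraries differed beyond sampling noise and all 15 were kept. The chi-square per gene between 2 replicates was highest in T0 (2.06 to 3.09), the reference of the T7 and T14 terms. It was 1.44 to 2.04 in T14+RA and 1.07 to 1.53 in the other groups.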

Additional observations from a re-analysis of the deposited data

Results flagged for a closer look

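The RA change of Smad7 differed between the days by -2.08 on the log2 scale (day 14 minus day 7, SE 0.457, edgeR adjusted p = 0.00721). All 3 T14+RA libraries (5.44 to 12.6 CPM) were below all T14-RA libraries (24.8 to 33.6 CPM), while the T7+RA libraries (22.8 to 44.3 CPM) reached above the T7-RA libraries (20.3 to 24.7 CPM). The T14+RA libraries held 11, 8 and 3 counts, and the ratio of depth-scaled sums to T14-RA was 0.345 (95% counting interval 0.201 to 0.573). DESeq2 gave no adjusted p for this gene, and limma-voom gave -2.03 (adjusted p = 0.0226).

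Myod1, a muscle bHLH factor held back by Id proteins, also differed between the days, by -1.04 (SE 0.266, edgeR adjusted p = 0.0369). It was named after its values were seen, because no additive term called it. Its RA change was 0.77 at day 7 (SE 0.171, edgeR adjusted p = 0.00106) and -0.28 at day 14 (SE 0.203, adjusted p = 0.489). The libraries stood at 135, 161 and 149 CPM in T7+RA, above 76.3, 91.4 and 95.9 in T7-RA, and at 61.7, 77 and 56.2 in T14+RA against 63.7, 95.6 and 81.3 in T14-RA. The difference was not called without T7-RA replicate 1 or 2, T14-RA replicate 2 or 3, T7+RA replicate 2 or 3, or T14+RA replicate 1 or 3 (edgeR adjusted p up to 0.168), nor with limma-voom (0.0761) or DESeq2 (0.0782).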

How the results depend on the processing

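Id3 kept its 2 time calls under every alternative run, and so did the T14 call of Id1. Of the 9 genes, an adjusted p under 0.05 called 6 for T7 (2 at 0.001), 2 for RA (1), 1 for RA at day 14 (0), 5 for T7-RA against T0 (2), 3 for T7+RA against T0 (1) and 2 for T14+RA against T7+RA (1), beside 23.1%, 14.7%, 11.2%, 22.6%, 25.8% and 11.4% of all genes. DESeq2 called 1 for T7, 0 for RA, 1 for T7-RA against T0 and 0 for T14+RA against T7+RA, and limma-voom and library size only each called 1 for T7-RA against T0. With each library left out, the counts were 1 to 2 for T7, 2 to 3 for T14, 0 to 1 for RA and for RA at day 7, 1 to 2 for T7-RA and for T7+RA against T0, and 0 to 1 for T14+RA against T7+RA. Of the 44 other genes, an adjusted p under 0.05 called 15 for T7, for RA and for RA at day 7, 11 for RA at day 14, 17 for T7-RA against T0 and 7 for T14-RA against T7-RA (8, 7, 5, 3, 9 and 4 at 0.001). For RA at day 7 and T14-RA against T7-RA it called 7.41% and 7.79% of all genes. For T14+RA against T7+RA limma-voom called 6 and DESeq2 7 (11 with edgeR), and for the difference between days 1 and 0 (2 with edgeR, and DESeq2 gave no adjusted p for Smad7). With each library left out these were 3 to 8 for T7 (3 without T0 replicate 1), 2 to 5 for T14-RA against T7-RA, 6 to 12 for T14+RA against T7+RA and 0 to 2 for the difference. Besides Id1 (-0.08 to 0.64), small RA changes at day 14 turned sign with 1 library left out: Bmpr1a ranged from -0.15 to 0.16, Bmpr2 from -0.19 to 0.11 and Smad6 from -0.81 to 0.09. The causes were not tested. Scaling by library size alone moved the median of all genes to 0.13 for T7 and 0.15 for T14 (0.02 and 0.05 with TMM), and the calls to 648 higher and 358 lower for T7 (496 and 514) and 1221 and 844 for T14 (980 and 1024), and turned no direction of a named gene.

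The replicate numbers are shared between groups in the labels, but nothing in them says that a number marks a shared culture or day. Deviations of libraries with the same number correlated by -0.0394 to 0.186 (mean 0.0321, against -0.016 for different numbers), some below 0, so the numbers were not taken as pairs. With the replicate block, calls among the 9 genes were again 2 for T7, 3 for T14 and 1 for RA, and among the 44 others 8, 16 and 7. Of the 15 libraries, 8 correlated best with their own number. Depth limits Id4 and Smad6 most, at 0 to 8 and 4 to 25 counts per library.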
